A study of Mus musculus with 9 samples.

Results

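The response of mouse monocyte-derived dendritic cells to R837 is described here by 3 libraries of R837-treated cells and 3 libraries of unstimulated control cells, out of 9 libraries in the series. R837 (imiquimod) is a synthetic compound that activates Toll-like receptor 7, a sensor of single-stranded RNA in endosomes. Toll-like receptor 7 signals through the adaptor MyD88 to the NF-kB, AP-1 and interferon regulatory factor families of transcription factors, and dendritic cells answer with cytokines, chemokines and co-stimulatory molecules. Monocyte-derived dendritic cells are antigen-presenting cells that monocytes form in culture with GM-CSF and IL-4, as at sites of inflammation.

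All 6 cultures were of C57BL/6 bone marrow monocytes, kept for 7 days with the cytokines GM-CSF at 100 ng/mL and IL-4 at 50 ng/mL, then sorted by flow cytometry. For the R837 group the protocol gives 24 h of priming with interferon α and then 18 h with R837. The labels call the controls unstimulated and do not say whether they were primed, so the effects of R837 and of priming cannot be told apart. The labels do not state whether the replicates are separate cultures or separate mice, so p-values reflect the spread among these libraries, which may be technical. In bulk libraries such as these, fewer cells of a type and less RNA per cell cannot be told apart.

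Values are FPKM, which divide a gene's fragments by its length and by the size of the library, a unit in which levels of different genes can be compared. The steps between low values point to a depth of 10970000 to 12630000 fragments or reads when a narrow range was searched and of 21960000 to 24990000 when a wider one was. Only 34.9% to 38.6% of the low values came out within 0.1 of a whole number in the narrow search and 42.8% to 47.6% in the wide one, so the absolute depth is weakly determined. The deposited FPKM summed to between 314325 and 322105 in the R837 libraries and between 318057 and 324395 in the controls, and FPKM carry no counting intervals.

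The cell type label was set beside 22 markers of dendritic and monocyte-derived cells. Their summed level lay between 5413 and 6128 FPKM with R837 and between 5177 and 5231 FPKM in controls. Several of these markers are shared with macrophages, so the sum cannot tell dendritic cells from macrophages. Cd74, the invariant chain of MHC class II, carried much of this sum. It measured 2431, 2735 and 2234 FPKM in the R837 libraries, against 2144, 2086 and 2114 FPKM in the control libraries. Adgre1, a macrophage marker also on this list and named after its values were seen, measured 145, 71.6 and 161 FPKM with R837. In controls it measured 125, 124 and 116 FPKM. Itgax, which encodes CD11c, measured 105, 95.8 and 108 FPKM with R837 and 88.6, 93.2 and 93.3 FPKM in controls. Cd209a, often used to mark monocyte-derived dendritic cells in mice, was listed at 0 in all 6 libraries, and Ccr2, Clec10a and Flt3 did not exceed 1.08 FPKM in any of them. All 37 mitochondrial genes were also listed at 0 in every library, so a listed 0 is not always a measured absence. Whether this applies to Cd209a was not tested.

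Blood cell transcripts stood out in 2 R837 libraries. The 19 markers of red cells and their precursors summed to 48.4, 338 and 2040.2 FPKM in R837 replicates 1, 2 and 3, against 30.9, 22.6 and 21.8 FPKM in the controls. Hbb-bs, a beta-globin gene, measured 0, 98.0 and 815 FPKM with R837 and 0.0572, 0 and 0.0569 FPKM in controls. R837 replicate 3 also held the kappa light chain gene Igkc at 46.4 FPKM, the neutrophil elastase gene Elane at 30.8 FPKM and the eosinophil granule protein gene Prg2 at 35.8 FPKM. Summed markers of B and plasma cells lay between 38.6 and 99.2 FPKM with R837 and between 24.8 and 25.9 FPKM in controls, and those of eosinophils, basophils and mast cells between 28.3 and 76.0 FPKM with R837 and between 31.2 and 34.3 FPKM in controls. Summed neutrophil markers lay between 1885 and 5490.4 FPKM with R837 and between 5324 and 6084 FPKM in controls, and T cell markers between 114 and 165 FPKM with R837 and between 178 and 203 FPKM in controls. A single gene carried each of these sums. Without Chil3, the other 19 neutrophil markers summed to 240.1, 219.8 and 581 FPKM in R837 replicates 1, 2 and 3, against 224.6, 208.8 and 227 FPKM in controls. Without Il7r, the other 13 T cell markers summed to 13.002, 15.8 and 13.6 FPKM with R837 and 9.21, 9.99 and 8.82 FPKM in controls, with the T cell receptor zeta chain gene Cd247 called as risen (log2 change 1.63) and Cd3e at or below 0.0646 FPKM in every library. Markers of natural killer cells summed to no more than 1.11 FPKM with R837 and 1.19 FPKM in controls. The part of these cells in the response was not tested, but values without the libraries concerned are given with the counts below.

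R837 was followed by a broad response in which more genes fell than rose, while most changes of 4-fold or more on the log2(FPKM + 1) scale were rises. The test covered 11466 genes with an FPKM of at least 1 in at least 3 of the 6 libraries, using limma on log2(FPKM + 1) with Benjamini-Hochberg adjustment over all of them and a threshold of 0.05. At that threshold 1443 genes rose, which is 12.6% of those tested, and 3012 fell, which is 26.3%, or 38.9% in either direction. Counts for gene lists and families below are to be read beside these shares. Rises of 2-fold or more numbered 582 genes (5.08%) and falls of 2-fold or more 367 (3.2%). These counts depended on the settings: with a pseudocount of 0.1 in place of 1 there were 737 genes risen 2-fold or more and 713 genes fallen 2-fold or more, and after the median-of-ratios scaling described next 722 and 228. At 4-fold or more there were 146 rises and 20 falls, and at 8-fold or more 44 rises and 1 fall. The R837 and control libraries did not overlap for 6260 genes (54.6%). Fold changes on the log2(FPKM + 1) scale understate the change of low genes.

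The balance of rises and falls depended on the scaling. On the deposited FPKM, the median log2 change over all tested genes was -0.17. When libraries were rescaled so that this median was about 0 (median-of-ratios scaling), 1953 genes rose and 1618 fell, so that rises made up 54.7% of the calls in place of 32.4%. With quantile normalization rises made up 44.6% of the calls, with 1690 rises and 2099 falls. Both scalings shift genes upwards on the whole, so they test the falls and not the rises. Of the 367 falls of 2-fold or more, 358 were called after median-of-ratios scaling and 360 with quantile normalization, of which 277 were still 2-fold or more. Small falls are therefore read below against the median of -0.17.

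**Figure D1:**
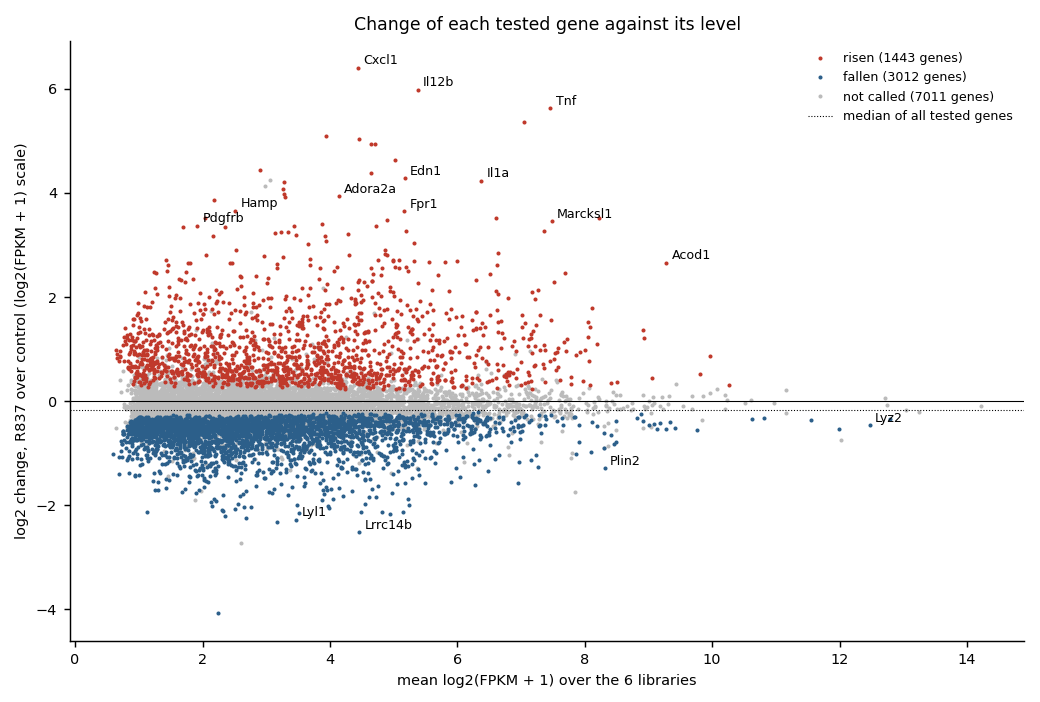
Log2 change of each of the 11466 tested genes (vertical axis, R837 over control, log2(FPKM + 1) scale) against its mean level over the 6 libraries (horizontal axis, mean log2(FPKM + 1)). Red points are the 1443 genes that rose, blue points the 3012 that fell and grey points the 7011 that were not called; the dotted line is the median of all tested genes, -0.17, and rises extend to a log2 change of 6.40 while only 1 fall passes -3.

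Leaving out R837 replicate 3, which held the most blood cell transcripts, changed few of the calls of 2-fold or more. Of the 582 rises of 2-fold or more, 573 were called without it, and of the 367 falls 361. Without R837 replicates 2 and 3 the numbers were 567 and 351, but that fit holds 1 R837 library, which is assumed to vary as the 3 controls do. Within R837 and control, leaving out any 1 of the 6 libraries left 566 of these rises and 343 of these falls called in every fit. The lone fall beyond 8-fold was Gm47299, a predicted microRNA gene overlapping Rn7s2 on the same strand, at 0.175, 0.169 and 0.129 FPKM with R837 and 78.1, 17.6 and 4.05 FPKM in controls. Its control libraries differed widely among themselves.

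Genes at higher levels were called as risen more often, with each gene placed by the mean of its higher group. Of 508 genes placed at 100 FPKM or more, 30.7% rose and 19.3% fell. Of 1596 genes placed under 2 FPKM, 6.83% rose and 20.4% fell. A rise can itself place a gene in a higher range, so this trend is partly set by the placing. Low genes carry a larger counting error, so these shares do not compare the size of the response between levels.

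Beyond the classical inflammatory cytokines, the strongest rises included secreted mediators of other kinds: a vasoactive peptide, an iron hormone, T-cell-directed ligands of the TNF superfamily and the p28 subunit of interleukin 27. Il27, which encodes that subunit and is made by antigen-presenting cells, measured 30.9, 41.9 and 29.9 FPKM in the R837 libraries, against 0.507, 0.534 and 0.752 FPKM in the control libraries (log2 change 4.45, SE 0.147, limma adjusted p = 2.72e-06). Edn1, the gene of endothelin 1, a peptide known for constricting blood vessels, measured 175, 153 and 148 FPKM with R837 and 7.56, 6.47 and 7.53 FPKM in controls, a ratio of means of 22.0 (adjusted p = 1.43e-06, limma). Neither gene's libraries overlapped between groups, which was a condition for the largest rises and held for 54.6% of all tested genes. Il27 lies at chr7:126589010-126594941 and Edn1 at chr13:42301476-42307990 (GENCODE release M21, GRCm38), and values are for whole genes.

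Il1a, an alarmin of the interleukin 1 family, was the highest of these mediators at 441, 230.1 and 452 FPKM with R837 and 17.1, 16.7 and 20.7 FPKM in controls. Tnfsf15 (TL1A) and Tnfsf9 (4-1BB ligand) encode ligands that co-stimulate T cells. Tnfsf15 measured 48.7, 30.3 and 45.8 FPKM with R837, against 1.24, 1.12 and 1.37 FPKM in controls, and Tnfsf9 followed the same pattern. For Tnfsf9 the libraries held 41.1, 38.5 and 31.9 FPKM with R837 and 1.06, 1.64 and 1.93 FPKM in controls. Hamp encodes hepcidin, the hormone that lowers iron export from cells. Its values were 21.8, 22.0 and 15.01 FPKM with R837 and 0.322, 0.952 and 0.607 FPKM in controls (log2 change 3.66, SE 0.195, limma adjusted p = 2.17e-05). R837 replicate 3 was the lowest of its group for Hamp, and the groups were well apart.

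Several of these loci carry a second gene on the opposite strand, and the labels do not say whether counting used strand, so reads of the partners cannot be told apart. At Edn1 the antisense gene Gm47118 was at 4.90, 4.10 and 4.80 FPKM with R837 and was listed at 0 in all controls. At Il1a the overlapping gene Gm14023 was at 28.5, 3.13 and 31.6 FPKM with R837 and 1.58, 1.03 and 0.798 FPKM in controls (limma adjusted p = 0.019), a call lost in 4 of the 6 fits without 1 library, with adjusted p up to 0.059. Il27 overlaps Apobr, which averaged 35.8 FPKM with R837 and 29.7 FPKM in controls.

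**Figure D2:**
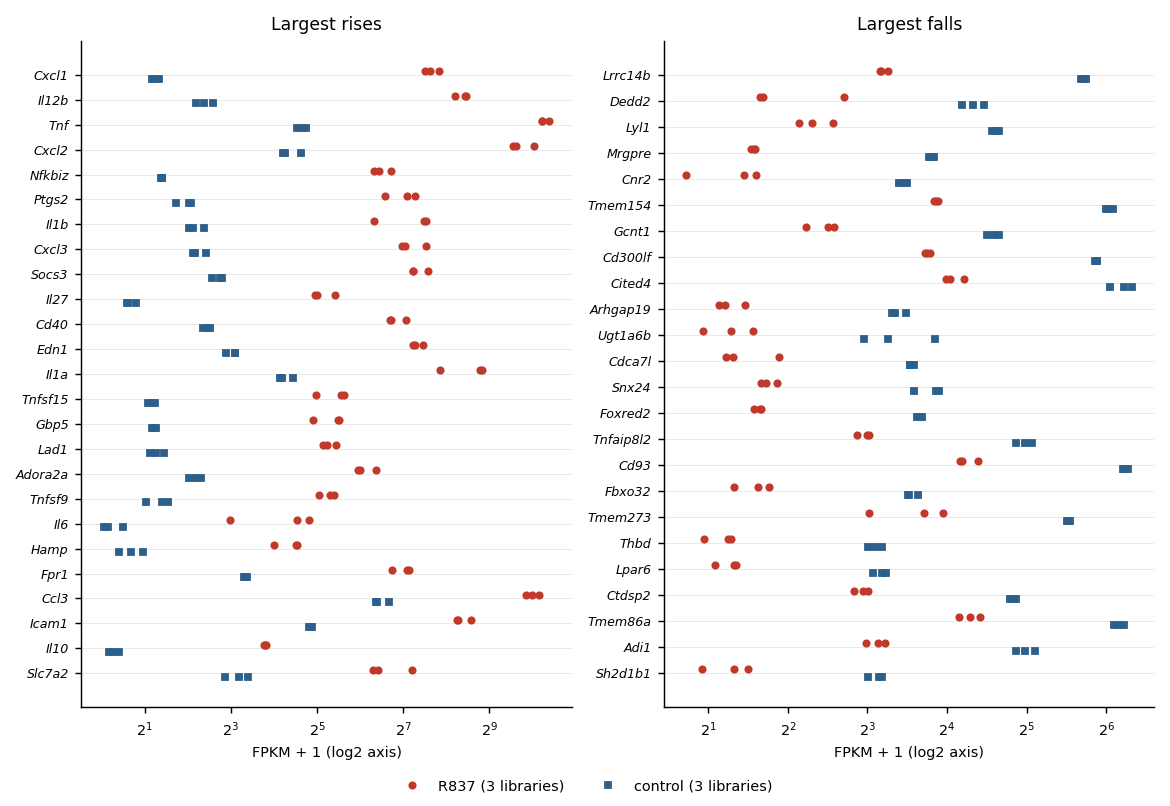
FPKM + 1 (horizontal log2 axis) of the 25 largest rises (left) and 24 of the 25 largest falls (right) among called genes whose groups did not overlap and whose higher group averaged 5 FPKM or more, predicted genes left out. Each red circle is 1 of 3 R837 libraries and each blue square 1 of 3 controls; Il27, for instance, is between 29.9 and 41.9 FPKM with R837 and at or under 0.752 FPKM in controls.

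A set of 16 genes was switched on, in that each was below 1 FPKM in every control and at least 5 FPKM in every R837 library. No gene met the reverse condition. Besides Il27 and Hamp the set held the cytokine genes Il6, Il10 and Il12a, which encodes the p35 subunit of interleukin 12. Il12a measured 10.4, 8.49 and 9.25 FPKM with R837 and was listed at 0, 0.0396 and 0 FPKM in controls. Il10, an anti-inflammatory cytokine gene, measured 13.2, 12.6 and 12.9 FPKM with R837 and 0.201, 0.331 and 0.133 FPKM in controls. Il6 varied more, with 27.2, 6.88 and 22.1 FPKM in R837 replicates 1, 2 and 3, against 0.0362, 0.113 and 0.424 FPKM in controls. R837 replicate 2 had the lowest Il6 of its group, still far above every control.

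The other switched-on genes act in matrix, vesicles, signalling and receptors. Pdgfrb, a receptor for platelet-derived growth factor best known from pericytes and fibroblasts, measured 11.1, 11.7 and 10.7 FPKM with R837 and 0.292, 0.102 and 0.151 FPKM in controls. Pdgfrb is also 1 of 13 markers of marrow stroma and endothelium, which summed to 19.03 to 19.98 FPKM with R837 and 9.27 to 12.2 FPKM in controls. Pdgfrb itself supplied most of the R837 sum and little of the control sum. Of the 4 tested members 1 rose, which was Pdgfrb, and 1 fell. Cdk5r1, the p35 activator of the kinase CDK5, measured 12.4, 14.1 and 11.3 FPKM with R837 and 0.431, 0.509 and 0.545 FPKM in controls. The set also held 8 further genes, Col27a1 (a fibrillar collagen), the receptor genes Gpr18 and Gpr85, Rab38 and Sytl3 (vesicle traffic), Rcsd1, and the predicted genes Gm26584 and Gm45244. Their R837 libraries lay between 5.33 and 16.4 FPKM, and their controls between 0.222 and 0.971 FPKM. Some lie opposite a more abundant gene that was also higher with R837. Mean FPKM with R837 and in controls were 107.8 and 39.6 for Ezr, opposite Sytl3. They were 91.9 and 24.4 for Acsl1, opposite Gm45244, and 102.6 and 7.98 for Slc7a2, opposite Gm26584. Ubac2, opposite Gpr18, was at 11.7 and 15.3. Strand use is not stated, so reads of these partners cannot be told apart.

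Changed genes lay side by side at 26 places where at least 3 neighbouring tested genes moved 2-fold or more in the same direction. Of these runs, 18 went upwards and 8 downwards. Some of the runs reach 3 genes only by counting genes that overlap, such as Ikbke and its antisense genes Gm28913 and Gm28914. Strand use is not stated, so reads of such genes cannot be told apart. On chromosome 5 the chemokine genes Cxcl3, Cxcl1 and Cxcl2, which draw neutrophils, rose together. Cxcl3 measured 183, 125 and 129.8 FPKM with R837 and 3.502, 3.38 and 4.35 FPKM in controls (log2 change 4.94, SE 0.163, limma adjusted p = 2.72e-06). Cxcl1 and Cxcl2 had log2 changes of 6.40 and 5.37. Upstream of all 3 genes stood the letters GGGA, any base, then TTTCC, a common form of the site bound by NF-kB proteins, and the same held for Il6. These 4 promoters are printed because they hold these letters and the genes are among the largest rises. Each is the 250 bases before the RefSeq start (GRCm38.p6, plus strand), 5′ to 3′, with the matching letters in capitals. The windows are chr5:90785851-90786100 for Cxcl3, chr5:90890995-90891244 for Cxcl1, chr5:90903649-90903898 for Cxcl2 and chr5:30012864-30013113 for Il6.
Cxcl3: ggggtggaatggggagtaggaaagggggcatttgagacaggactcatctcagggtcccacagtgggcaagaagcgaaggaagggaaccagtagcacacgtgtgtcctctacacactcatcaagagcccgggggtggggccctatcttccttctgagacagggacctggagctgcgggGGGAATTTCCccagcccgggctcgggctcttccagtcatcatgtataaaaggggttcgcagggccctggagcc
Cxcl1: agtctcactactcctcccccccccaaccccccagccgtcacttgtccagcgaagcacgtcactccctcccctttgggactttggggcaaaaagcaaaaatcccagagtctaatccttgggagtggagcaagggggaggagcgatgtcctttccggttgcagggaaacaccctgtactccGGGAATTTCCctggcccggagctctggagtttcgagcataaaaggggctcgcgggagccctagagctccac
Cxcl2: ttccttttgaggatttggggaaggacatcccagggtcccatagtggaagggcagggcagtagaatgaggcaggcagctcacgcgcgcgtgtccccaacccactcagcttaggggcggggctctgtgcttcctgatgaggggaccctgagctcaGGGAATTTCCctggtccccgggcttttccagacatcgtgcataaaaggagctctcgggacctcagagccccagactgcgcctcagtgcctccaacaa
Il6: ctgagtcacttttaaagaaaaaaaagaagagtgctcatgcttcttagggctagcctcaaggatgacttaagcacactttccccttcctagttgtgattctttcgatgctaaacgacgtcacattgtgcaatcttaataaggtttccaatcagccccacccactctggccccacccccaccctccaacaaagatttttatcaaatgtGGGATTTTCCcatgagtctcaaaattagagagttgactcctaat

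The capital letters begin 73 bases before the start in Cxcl3, 71 in Cxcl1, 97 in Cxcl2 and 44 in Il6. Of 18 genes among the 25 largest rises that had a promoter entry, 5 held these letters, the fifth being Gbp5. On either strand they occurred in 1.56% of the 385 promoters of genes risen 2-fold or more, in none of the 244 of genes fallen 2-fold or more, and in 0.354% of the 8198 of all tested genes. Among 30 genes risen 8-fold or more, a set chosen after the values were seen, the share was 20%. The letters GAAA, any 2 bases, then GAAA, of the interferon response type, were in 7.27% of promoters of genes risen 2-fold or more, 3.28% of those fallen 2-fold or more and 2.88% of all. For TGANTCA, of the AP-1 type, the shares were 7.79%, 5.74% and 4.21%. A wider form of the NF-kB site (GGG, any 2 bases, TTTCC) was in 3.38%, 1.23% and 1.37%. Also searched were TGACGTCA (cyclic AMP response; 1.56%, 1.64% and 2.72%), CACGTG (E-box; 6.75%, 7.79% and 8.95%), TTGCNNAA (C/EBP; 8.83%, 6.56% and 7.38%) and AGGAAGT (PU.1; 9.35%, 11.9% and 8.14%). The wider NF-kB form includes the strict one. A match describes letters in a window and is not evidence of binding.

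Guanylate-binding proteins, interferon-inducible GTPases that act against pathogens inside cells, formed 2 of these gene neighbourhoods and were the family with the highest share of rises. Of 10 tested Gbp genes 9 rose and 1, Gbp8, fell slightly (log2 change -0.37), a fall no longer called after median-of-ratios scaling. Gbp5 measured 43.5, 29.0 and 44.9 FPKM with R837 and 1.34, 1.27 and 1.42 FPKM in controls (log2 change 4.07, SE 0.167, limma adjusted p = 6.61e-06). Gbp5, Gbp7, Gbp3 and Gbp2 lie together at chr3:142493978-142638008, and Gbp4, Gbp10 and Gbp6 at chr5:105115767-105293698. Log2 changes were 2.08 for Gbp7, 1.95 for Gbp3, 1.75 for Gbp2, 1.86 for Gbp6, 1.37 for Gbp10 and 1.37 for Gbp4. Gbp genes are similar in sequence and the handling of shared reads is not stated, so the split between members is uncertain.

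Other runs of rises held known partners. Rsad2 (viperin, an antiviral enzyme) and its neighbour Cmpk2 rose with log2 changes of 1.27 and 1.09. Dtx3l and Parp9, which form an E3 ligase complex and overlap on opposite strands, rose by 1.64 and 1.52 on the log2 scale. Lta, the lymphotoxin alpha gene beside Tnf, measured 5.03, 4.09 and 3.18 FPKM with R837 and 0.155, 0.0795 and 0.126 FPKM in controls. Among runs of falls, Cd300a and Cd300lb lie together on chromosome 11 within chr11:114675431-114934386. Cd300a, an inhibitory receptor, measured 19.7, 20.3 and 20.1 FPKM with R837 and 55.0, 55.0 and 47.9 FPKM in controls. The call of Cd300lb was lost without R837 replicates 2 and 3 (limma adjusted p = 0.081).

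Several receptors for adenosine, formyl peptides and metabolites rose, while several for lysophospholipids and sphingosine 1-phosphate fell and those for nucleotides went both ways. Of 32 receptors for lipid mediators and metabolites 21 were tested; 7 of them rose and 12 fell, with a median log2 change of -0.40 against -0.17 for all tested genes. Of 23 purine receptors and ectonucleotidases 15 were tested; 5 of them rose and 4 fell, with a median of 0.17. Adora2a, an adenosine receptor that raises cyclic AMP and restrains inflammation, measured 62.9, 81.8 and 61.0 FPKM with R837 and 3.54, 3.97 and 3.07 FPKM in controls (log2 change 3.93, SE 0.138, limma adjusted p = 3.26e-06). Adora2b, its relative of lower affinity for adenosine, measured 19.8, 21.2 and 17.4 FPKM with R837 and 2.28, 2.07 and 1.58 FPKM in controls. Both genes were higher in every R837 library than in any control. For Adora2a this was a condition of being named among the largest rises.

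Fpr1, a receptor for bacterial and mitochondrial formyl peptides, measured 140.2, 106 and 135 FPKM with R837 and 9.39, 9.05 and 8.96 FPKM in controls. Fpr2, its relative, measured 67.9, 43.9 and 85.2 FPKM with R837 and 13.98, 9.74 and 9.91 FPKM in controls. Gpr84, a receptor for medium-chain fatty acids, measured 73.7, 88.2 and 71.3 FPKM with R837 and 10.3, 9.18 and 11.2 FPKM in controls. Within the R837 group Fpr2 spread most and was lowest in replicate 2. Hcar2, the receptor for nicotinic acid and the ketone body beta-hydroxybutyrate, was even among replicates, at 87.6, 85.2 and 91.0 FPKM with R837 and 14.9, 14.3 and 14.7 FPKM in controls (limma adjusted p = 2.06e-06).

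On the falling side, P2ry1, an ADP receptor, measured 3.43, 3.65 and 3.92 FPKM with R837 and 12.5, 11.8 and 11.8 FPKM in controls (log2 change -1.48, SE 0.0859, limma adjusted p = 2.82e-05). Lpar6, a lysophosphatidic acid receptor whose gene lies inside Rb1 on the opposite strand, measured 1.54, 1.12 and 1.49 FPKM with R837 and 8.09, 7.39 and 8.401 FPKM in controls. Rb1 itself averaged 2.41 FPKM with R837 and 6.32 FPKM in controls, so the reads of these overlapping genes cannot be told apart. S1pr2, a sphingosine 1-phosphate receptor named here after its values were seen, measured 5.23, 6.42 and 5.91 FPKM with R837 and 19.9, 21.1 and 19.8 FPKM in controls. No library of these 3 genes overlapped between groups, while the groups did not overlap for 54.6% of all tested genes. For Lpar6 this was a condition of being named among the largest falls. Other nucleotide receptors rose: P2ry13, also an ADP receptor, measured 7.71, 3.48 and 6.98 FPKM with R837 and 1.94, 1.98 and 1.78 FPKM in controls (limma adjusted p = 0.0071), and P2ry2, a receptor for ATP and UTP, had a log2 change of 1.00 (limma adjusted p = 0.0078). Both were named after their values were seen.

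**Figure D3:**
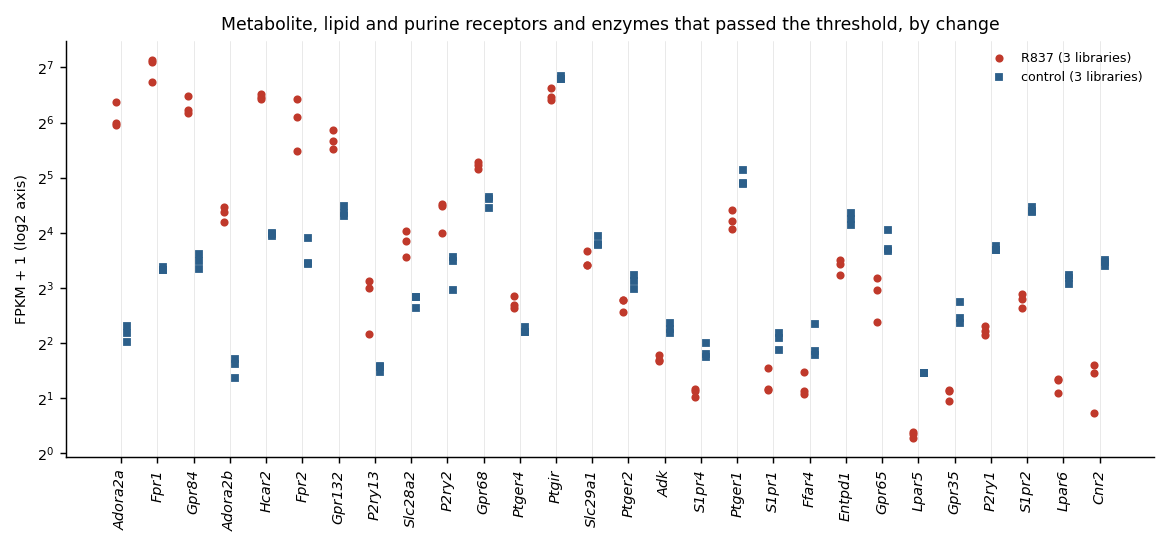
FPKM + 1 (vertical log2 axis) of the 28 lipid, metabolite and purine receptors and enzymes that passed the threshold, ordered from the largest rise on the left to the largest fall on the right. Red circles are the 3 R837 libraries and blue squares the 3 controls; Adora2a and Fpr1 are at the left end, and the right end is Cnr2, next to Lpar6 with R837 libraries between 1.12 and 1.54 FPKM and controls above 7 FPKM.

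Genes of cyclic AMP signalling, which adenosine receptors use, mostly fell. Of 30 tested, 5 rose and 17 fell, with a median log2 change of -0.39; after median-of-ratios scaling 7 rose and 11 fell. The exceptions were led by Pde4b, the phosphodiesterase that Toll-like receptors are known to induce, at 19.5, 14.4 and 19.4 FPKM with R837 and 2.58, 2.47 and 2.77 FPKM in controls (limma adjusted p = 2.45e-05). Akap13, an anchor of protein kinase A, rose by 1.38 on the log2 scale (SE 0.0771). Rapgef3 (EPAC1, a cyclic AMP sensor) had a log2 change of -1.38 and Rgs14 of -1.07.

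The clotting and plasminogen system moved in a mixed way, with rises of Serpinb2 and Procr and a fall of Thbd. Of 21 members 13 were tested; 7 of them rose and 3 fell, and the median log2 change was 0.57. Serpinb2, a mostly intracellular protease inhibitor, measured 81.9, 28.5 and 84.6 FPKM with R837 and 5.58, 4.58 and 6.08 FPKM in controls (log2 change 3.22, SE 0.392, limma adjusted p = 8.15e-04), with R837 replicate 2 well below the others of its group. Procr, the endothelial protein C receptor, measured 122, 133 and 126 FPKM with R837 and 47.0, 48.2 and 45.7 FPKM in controls. Thbd, thrombomodulin, which works with Procr to activate protein C and also marks some dendritic cells, measured 0.926, 1.37 and 1.44 FPKM with R837 and 7.52, 8.05 and 7.05 FPKM in controls (log2 change -1.93, SE 0.121). F3, tissue factor, was near 1 FPKM in both groups and was not called (log2 change 0.02, limma adjusted p = 0.89).

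Of 20 acute phase and secreted defence proteins 15 were tested; 6 of them rose and 2 fell, with a median of 0.30. Ptx3, a pentraxin that binds microbes, measured 25.7, 42.6 and 35.0 FPKM with R837 and 2.37, 2.92 and 1.87 FPKM in controls (limma adjusted p = 2.97e-05). Saa3, a serum amyloid A of macrophages, measured 53.9, 70.3 and 53.6 FPKM with R837 and 10.3, 9.60 and 10.1 FPKM in controls. Lcn2, an iron-siderophore binding protein that neutrophils also hold, measured 84.9, 97.5 and 87.0 FPKM with R837 and 45.5, 44.4 and 47.6 FPKM in controls. Lcn2 was similar in the 3 R837 libraries. Camp, another neutrophil gene, stood high in R837 replicate 3 (5.19, 7.00 and 36.0 FPKM with R837, 3.52, 2.21 and 2.57 FPKM in controls) and was not called (limma adjusted p = 0.064).

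Growth factors went in both directions, with 6 risen and 7 fallen of 16 tested out of 28 and a median log2 change of -0.27. Pdgfb, a ligand of Pdgfrb, measured 26.8, 35.6 and 26.7 FPKM with R837 and 7.81, 6.81 and 7.34 FPKM in controls. Inhba, which encodes the subunit of activin A, measured 146, 136 and 141 FPKM with R837 and 37.3, 43.0 and 47.8 FPKM in controls (log2 change 1.71, SE 0.103, limma adjusted p = 3.36e-05). Vegfa, the main angiogenic growth factor, moved the other way, with 4.87, 5.82 and 4.39 FPKM with R837 and 18.4, 17.7 and 17.3 FPKM in controls (log2 change -1.65, SE 0.107). Gdf15 was called (limma adjusted p = 0.028), but its R837 libraries held 280.5, 367 and 118 FPKM, against 97.0, 88.0 and 85.9 FPKM in controls, and 5 of the 6 fits without 1 library lost the call, with adjusted p up to 0.082.

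Genes that edit ubiquitin in NF-kB signalling mostly rose. Of 32 tested 17 rose and 4 fell, with a median log2 change of 0.39, and after median-of-ratios scaling 18 rose and 3 fell. Traf1, an adaptor of TNF receptors, measured 48.2, 59.6 and 47.4 FPKM with R837 and 6.29, 6.51 and 6.53 FPKM in controls (log2 change 2.82, SE 0.106, limma adjusted p = 4.44e-06). Tnfaip3 encodes A20, the ubiquitin-editing enzyme that ends NF-kB signalling, and measured 139, 174 and 175 FPKM with R837 and 23.3, 25.5 and 23.4 FPKM in controls. Its binding partner Tnip1 rose by 1.52 and the ligase gene Rnf19b by 1.54 on the log2 scale.

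Transcription factors of myeloid cells changed in both directions. Of 52 tested 23 rose and 14 fell, with a median of 0.29. Batf, an AP-1 family member of dendritic cells and lymphocytes, measured 68.0, 78.6 and 56.8 FPKM with R837 and 10.5, 10.2 and 11.0 FPKM in controls. Hivep3, a large zinc finger protein that binds kB-like sites, measured 19.9, 22.4 and 20.3 FPKM with R837 and 2.29, 2.84 and 2.98 FPKM in controls (log2 change 2.57, SE 0.106, limma adjusted p = 6.74e-06). Zbtb46, a factor of conventional dendritic cells, was low in both groups, at 2.06, 1.93 and 1.96 FPKM with R837 and 0.483, 0.737 and 0.568 FPKM in controls, and rose. Cebpa, a myeloid factor named here after its values were seen, measured 15.8, 23.6 and 16.9 FPKM with R837 and 53.2, 50.8 and 48.1 FPKM in controls.

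Chromatin modifiers rose about as often as all tested genes and fell less often. Of 52 tested 7 rose (13.5%) and 9 fell (17.3%), against 12.6% and 26.3% of all tested genes, with a median of -0.13. After median-of-ratios scaling 12 of the 52 rose and 5 fell. A few changed strongly. Kdm6b, a histone H3 lysine demethylase known to be induced in macrophages, measured 23.9, 26.8 and 21.6 FPKM with R837 and 4.07, 4.95 and 4.62 FPKM in controls (limma adjusted p = 1.69e-05). Dnmt1, the maintenance DNA methyltransferase, measured 9.28, 11.0 and 10.3 FPKM with R837 and 34.8, 36.4 and 36.9 FPKM in controls (log2 change -1.72, SE 0.0884). Tet2, which oxidizes methylcytosine, rose by 1.23 on the log2 scale (SE 0.213), and the deacetylase gene Hdac5 had a log2 change of -1.31.

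In metabolism, some genes for arginine uptake and nitric oxide synthesis rose, and so did the gene of the itaconate enzyme. Slc7a2, a cationic amino acid transporter, measured 83.7, 78.3 and 146 FPKM with R837 and 9.51, 6.32 and 8.09 FPKM in controls, highest in R837 replicate 3. The gene Gm26584 overlaps it on the opposite strand and was at 14.9, 16.4 and 14.8 FPKM with R837 and 0.324, 0.840 and 0.689 FPKM in controls. Nos2, inducible nitric oxide synthase, measured 238, 249.97 and 239 FPKM with R837 and 37.6, 38.7 and 39.9 FPKM in controls (log2 change 2.61, SE 0.0700, limma adjusted p = 1.74e-06). Gch1, which starts the synthesis of the nitric oxide synthase cofactor tetrahydrobiopterin, rose by 1.33 on the log2 scale. Of 10 tested genes of nitric oxide and tetrahydrobiopterin synthesis 4 rose (40%), 1 fell (10%) and 5 were not called, with a median log2 change of -0.098. Over all tested genes 12.6% rose, 26.3% fell and the median was -0.17. Without R837 replicate 2 the falls in this list were 3. Acod1, the enzyme that makes itaconate, was among the most abundant of all risen genes at 1622, 1516 and 1543 FPKM with R837 and 241.4, 242 and 255 FPKM in controls (ratio of means 6.33).

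The phagocyte NADPH oxidase showed 3 rises and 2 falls among 9 tested genes. Ncf1 (p47phox) measured 167, 169 and 156 FPKM with R837 and 65.3, 65.9 and 64.3 FPKM in controls (log2 change 1.32, SE 0.0709). Among 12 tested genes of tryptophan and NAD metabolism 4 rose and 4 fell; after median-of-ratios scaling 5 rose and 1 fell, and 2 fell without R837 replicate 3. Cd38, an NAD-consuming ectoenzyme, measured 28.2, 19.1 and 27.2 FPKM with R837 and 5.50, 4.89 and 5.12 FPKM in controls (limma adjusted p = 8.26e-05). Nmrk1, a nicotinamide riboside kinase of NAD salvage, measured 3.33, 2.82 and 2.65 FPKM with R837 and 8.59, 8.10 and 8.42 FPKM in controls.

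Genes of fatty acid oxidation and peroxisomes seldom rose. Of 41 tested 2 rose and 19 fell, with a median log2 change of -0.32, and 13 fell after median-of-ratios scaling. Cpt1a, which admits long-chain fatty acids to mitochondria, measured 19.0, 17.9 and 18.3 FPKM with R837 and 37.2, 42.8 and 37.2 FPKM in controls (log2 change -1.04, SE 0.0865, limma adjusted p = 1.42e-04). Among the 2 rises, Acsl1, a fatty acid CoA ligase, measured 67.6, 101 and 108 FPKM with R837 and 27.8, 27.4 and 18.0 FPKM in controls.

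Enzymes of phospholipid and sphingolipid metabolism showed 5 rises (12.8%) and 14 falls (35.9%) among 39 tested, with a median of -0.26. Over all tested genes 12.6% rose and 26.3% fell, so the share of rises was near that of all genes. The counts after median-of-ratios scaling were 11 and 10. Cers6, a ceramide synthase, rose by 1.63, while Lpin1, a phosphatidate phosphatase, had a log2 change of -1.45 and Plcb2, a phospholipase C, of -1.42. Of 33 inositol lipid kinases and phosphatases 8 rose (24.2%) and 7 fell (21.2%). Pik3r1, the regulatory subunit of phosphoinositide 3-kinase, measured 42.3, 37.8 and 35.1 FPKM with R837 and 11.0, 11.5 and 11.1 FPKM in controls. Inpp5d (SHIP1), which removes a phosphate from the lipid that this kinase makes, measured 7.05, 7.06 and 7.42 FPKM with R837 and 25.04, 27.3 and 24.8 FPKM in controls (log2 change -1.71, SE 0.0808, limma adjusted p = 1.19e-05).

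Genes of the actin cytoskeleton and cell movement changed in both directions. Of 43 tested 13 rose and 9 fell, with a median near 0. Gem, a small GTPase that alters cell shape and calcium channels, measured 116, 127 and 113 FPKM with R837 and 16.4, 18.0 and 18.7 FPKM in controls (limma adjusted p = 2.72e-06). Cdc42ep2, an effector of CDC42, measured 53.6, 57.1 and 55.7 FPKM with R837 and 10.0, 11.0 and 10.2 FPKM in controls.

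Marcksl1, an actin-linked substrate of protein kinase C, was the actin gene with the largest rise, at 583, 651 and 542 FPKM with R837 and 54.6, 53.9 and 50.5 FPKM in controls (log2 change 3.45, SE 0.0907, limma adjusted p = 1.68e-06). Fscn1, the actin bundler of mature dendritic cells, measured 40.4, 34.4 and 26.3 FPKM with R837 and 10.4, 8.11 and 5.80 FPKM in controls. Actb was not called (367, 309 and 295 FPKM with R837, 343, 305 and 314 FPKM in controls). Arhgap25, a GTPase-activating protein of phagocytes named here after its values were seen, measured 22.0, 23.7 and 22.0 FPKM with R837 and 61.5, 65.5 and 66.6 FPKM in controls.

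Among ion channels and metal transporters 15 of 42 rose (35.7%) and 13 fell (31.0%), against 12.6% and 26.3% of all tested genes. Only 4 fell after median-of-ratios scaling. Clic4, a chloride intracellular channel protein, measured 298, 294 and 285 FPKM with R837 and 70.9, 72.7 and 78.9 FPKM in controls (limma adjusted p = 4.65e-06), and Orai2, a subunit of calcium release-activated channels, measured 32.4, 36.3 and 32.7 FPKM with R837 and 8.08, 8.02 and 8.20 FPKM in controls. Tetraspanins showed 3 rises and 8 falls among 15, with a median of -0.38. Tspan14, a partner of the sheddase ADAM10, measured 13.004, 13.9 and 11.9 FPKM with R837 and 38.2, 39.8 and 38.2 FPKM in controls (log2 change -1.51, SE 0.0854). Of 18 serpins and other protease inhibitors 3 rose and 3 fell (16.7% each), with 6 rises without R837 replicate 2.

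**Figure D4:**
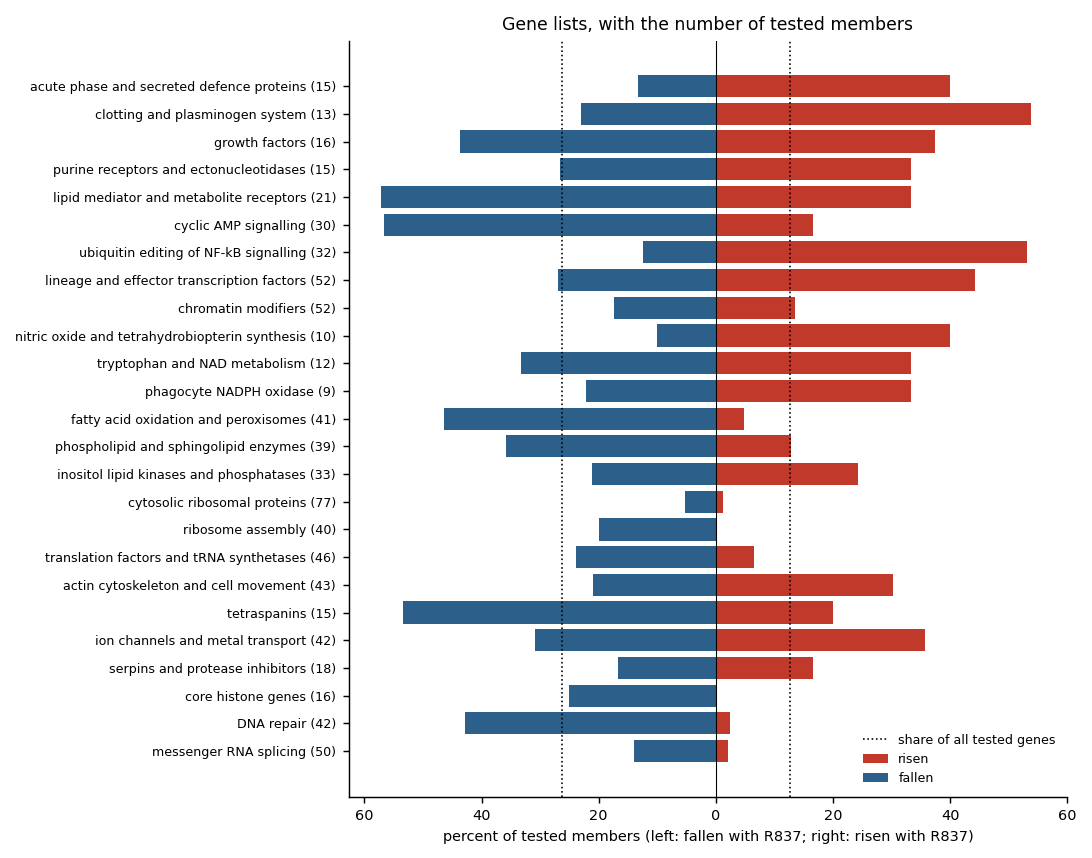
Percent of tested members of 25 gene lists that rose with R837 (red, to the right) or fell (blue, to the left); the number of tested members stands after each name and the dotted lines mark the shares over all tested genes, 12.6% risen and 26.3% fallen. Clotting and plasminogen genes and ubiquitin editing genes reach 53.8% and 53.1% risen, and receptors for lipid mediators and metabolites 57.1% fallen.

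Some of the largest falls were of receptors and dampers of myeloid signalling, examples picked with values in view. Predicted genes aside, the steepest of the largest falls were those of Lrrc14b, Dedd2 and Lyl1, with log2 changes of -2.5, -2.3 and -2.3. Cd300lf, an inhibitory receptor of myeloid cells, measured 12.5, 12.8 and 12.2 FPKM with R837 and 58.3, 57.2 and 58.2 FPKM in controls (log2 change -2.13, SE 0.0703, limma adjusted p = 2.72e-06). Cd93, a surface glycoprotein linked to the uptake of dying cells, measured 17.3, 16.9 and 19.9 FPKM with R837 and 74.5, 76.2 and 73.4 FPKM in controls. Tnfaip8l2 (TIPE2), a negative regulator of immune receptor signalling, measured 7.09, 6.32 and 6.94 FPKM with R837 and 32.7, 30.5 and 28.1 FPKM in controls. For Cd300lf, Cd93 and Tnfaip8l2 every R837 library lay below every control, which was a condition for the largest falls.

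Cited4, a partner of the co-activators CBP and p300, measured 14.9, 17.5 and 15.5 FPKM with R837 and 79.3, 65.3 and 73.7 FPKM in controls (limma adjusted p = 1.42e-05). Fbxo32, a ubiquitin ligase subunit known from muscle wasting, measured 2.40, 1.505 and 2.08 FPKM with R837 and 10.5, 11.4 and 10.4 FPKM in controls. Ctdsp2, a phosphatase of the RNA polymerase II tail, measured 6.68, 7.06 and 6.12 FPKM with R837 and 26.7, 28.2 and 27.6 FPKM in controls. These falls were between 4.15-fold and 5.396-fold in ratio of means. Ugt1a6b also fell, with variable control values (1.44, 0.916 and 1.94 FPKM with R837, 13.4, 8.55 and 6.74 FPKM in controls), but it shares exons with other Ugt1a genes and its value is uncertain.

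In absolute terms the risen genes together gained 36908 FPKM over control and the fallen genes lost 29051 FPKM, and a few genes held much of both. The 15 largest gains made up 24.0% and the 15 largest losses 29.7%. Lyz2, lysozyme, one of the most abundant transcripts, measured 4723, 4729 and 5072 FPKM with R837 and 6892, 6762 and 6400.0 FPKM in controls (log2 change -0.47, SE 0.0803, limma adjusted p = 0.004). The Lyz2 call was lost with quantile normalization (limma adjusted p = 0.17) and without a filter on low values (0.22). Itm2b measured 685, 779.5 and 688 FPKM with R837 and 1061, 1069 and 1008 FPKM in controls, and Thbs1, the matrix protein thrombospondin 1, 564, 591 and 567 FPKM with R837 and 770.0, 849.8 and 834 FPKM in controls. The lysosomal genes Psap, Ctsd and Ctss were called as fallen with log2 changes of -0.34, -0.53 and -0.36, but these depended on the scaling: Psap and Ctss were not called after median-of-ratios scaling (limma adjusted p = 0.33 and 0.23), and with quantile normalization Ctsd and Ctss had the opposite sign. Among abundant rises, Tnfrsf1b (TNF receptor 2) measured 763, 826 and 735 FPKM with R837 and 297, 311 and 293 FPKM in controls.

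Most lists of housekeeping machinery had medians near that of all genes. Of 77 cytosolic ribosomal proteins 1 rose and 4 fell, with a median of -0.19; without R837 replicate 2 the falls were 45, without replicate 3 they were 7, with quantile normalization 20 and after median-of-ratios scaling 0. Of 50 splicing genes 1 rose and 7 fell with a median of -0.07; after median-of-ratios scaling 7 rose and 1 fell, and 3 rose and 11 fell without R837 replicate 2. Ribosome assembly (0 of 40 risen, 8 fallen), translation factors and tRNA synthetases (3 of 46 risen, 11 fallen) and core histone genes (0 of 16 risen, 4 fallen) had medians of -0.17, -0.15 and -0.06. After median-of-ratios scaling the counts for these lists were 3 and 5, 5 and 3, and 2 and 2. DNA repair stood lower, with 1 of 42 risen, 18 fallen and a median of -0.33; after median-of-ratios scaling 10 fell. Xrcc1, a scaffold of base excision repair, measured 3.08, 3.35 and 2.91 FPKM with R837 and 6.66, 6.67 and 6.45 FPKM in controls. Of 15 genes commonly used as references none rose and 6 fell, among them Gusb (66.0, 76.1 and 67.5 FPKM with R837, 114, 109.9 and 108 FPKM in controls), while Actb, B2m and Gapdh were not called; after median-of-ratios scaling 3 fell.

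Grouped by symbol, 125 families of at least 10 tested genes were counted, and the examples here were chosen after their values were seen. Behind Gbp came Ccl chemokines with 7 of 11 risen, among them Ccl3 at 1134, 1006 and 919 FPKM with R837 and 82.7, 81.4 and 100.5 FPKM in controls. Klf factors showed 7 of 11 risen and 3 fallen, Il genes 18 of 36 risen and 5 fallen, and Bcl genes 8 of 16 risen and 2 fallen. Over all tested genes 12.6% rose and 26.3% fell. Genes that share the letters of a symbol need not share a function. The largest shares of falls were in Mfsd transporters (8 of 13), Tspan (6 of 10), Abhd hydrolases (9 of 17) and Snx sorting nexins (15 of 29). After median-of-ratios scaling the Mfsd, Tspan, Abhd and Snx falls numbered 5, 5, 6 and 7. Among 21 Cox genes of the respiratory chain none was called in either direction, and 2 rose after median-of-ratios scaling.

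By annotated type, protein-coding genes showed 1220 rises and 2713 falls among 9918, and processed pseudogenes 26 rises and 107 falls among 399. Non-coding genes were more even, with 82 rises and 84 falls among 425 antisense genes and 30 rises and 31 falls among 167 lincRNA genes. Since the strand setting is not stated, antisense values can hold reads of their partners.

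R837 replicate 2 differed from the other R837 libraries by base composition. It was 2-fold or more below both others for 165 genes, of which 17 were called, against 37 and 21 genes for R837 replicates 1 and 3 and 24 to 31 for the controls. The 165 genes had a median transcript GC content of 43.5%, against 50.1% over all tested genes. In the lowest of 5 equal bins of genes by GC content, its median difference from the mean of the other R837 libraries was -0.32 on the log2 scale, and in the highest bin 0.25. For the controls these medians lay between -0.05 and 0.05. The median log2 change between the groups was -0.14 in the lowest bin with this library and -0.03 without it. In the highest bin it was -0.16 with the library and -0.24 without it. These checks were chosen after the data were seen, and their part in the results was not tested.

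Genes named for this spread include Clec4n, a C-type lectin receptor, at 297, 26.2 and 249 FPKM with R837 and 442, 389.7 and 438 FPKM in controls. Mpeg1, a pore-forming protein of phagocytes, measured 352, 88.4 and 386 FPKM with R837 and 446, 419 and 423 FPKM in controls. Itgam, which encodes CD11b, measured 109.8, 37.1 and 129.9 FPKM with R837 and 132, 146 and 173 FPKM in controls. None of these 3 passed the threshold, with limma adjusted p of 0.14, 0.2 and 0.15, and in each the low value was that of R837 replicate 2. They were chosen after their values were seen. Without R837 replicate 2 the counts were 1687 rises and 3742 falls.

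**Figure D5:**
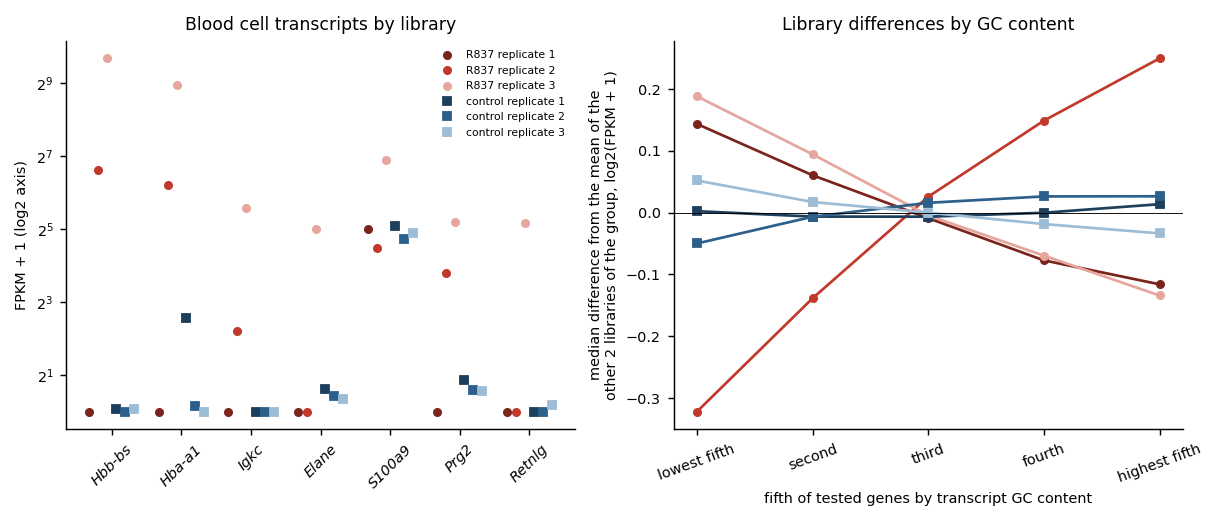
Left, FPKM + 1 (vertical log2 axis) of 7 blood cell transcripts in each library, with R837 libraries as circles and controls as squares: Hbb-bs reaches 815 FPKM in R837 replicate 3. Right, the median difference of each library from the mean of the other 2 of its group (vertical axis, log2(FPKM + 1)) over 5 equal bins of tested genes by transcript GC content (horizontal axis): R837 replicate 2 runs from -0.32 to 0.25.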

How the data were processed

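RNA sequencing gave 1 table of FPKM per gene for each library. The authors deposited these FPKM already computed, and HISAT2 and StringTie with the builds mm8 and mm10 are named per the submitters' processing notes; versions, the role of each build, strand setting and pooling are not given in the sources used here. Identifiers (52550 in each file) were named with GENCODE M21, which held 99.7% of them, and identifiers sharing a symbol (73 symbols) were summed.

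Genes with at least 1 FPKM in 3 of the 6 libraries were tested with limma 3.58.1 (R 4.3.3; log2 of FPKM plus a pseudocount of 1, empirical Bayes with a mean-variance trend) on the R837 and control libraries alone, with Benjamini-Hochberg adjustment over all 11466 genes at 0.05. The script was tested on simulated data with 200 changed genes. Alternatives covered all 9 libraries in one fit, TPM, median-of-ratios and quantile scaling, a pseudocount of 0.1, other filters, no trend, a replicate block and leaving libraries out.

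Genes named are, among those called, the 25 largest rises and falls with a mean of at least 5 FPKM and no overlap, the 15 largest gains and losses in FPKM, switched genes, up to 4 members per list, runs of neighbours and up to 10 genes with the largest spread between R837 libraries, plus the highest members of each marker list; others are said to be chosen after their values were seen. Members and gene lists were chosen with earlier results of these data known, and the examples shown were picked with values in view from 27 lists, 125 symbol families, 26 runs and 8 motifs. The promoter set of genes risen 8-fold or more was likewise added later. The narrow range for the depth search was set with an earlier estimate known. Promoters are from RefSeq, of which 8198 matched tested genes. Some genes and 1 gene list are not reported here.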

Additional observations from a re-analysis of the deposited data

How the results depend on the processing

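Of 266 named genes that were called, 30 lost their call or changed sign under at least 1 of 16 alternatives. The other 236 kept both under each alternative that tested them. The filter on a mean of at least 5 FPKM leaves out lower genes, so 206 of the 266 were tested under all 16, and 181 of these kept both. Many of the 266 were named for large or non-overlapping changes in these same libraries, so the tally does not describe all calls. With quantile normalization the log2 change of Ctsd was 0.0848 (limma adjusted p = 0.48) and that of Ctss 0.1322 (limma adjusted p = 0.41), the opposite sign to the values reported, and the cause was not tested. This tally leaves out 18 named genes that were not called, a restriction made after the values were seen; 9 of them changed sign and 7 were called under at least 1 alternative. The number of falls was 1618 after median-of-ratios scaling, which shifts every gene upwards, and 1671 when a mean of at least 5 FPKM was asked for, which tested only 6407 genes. The count of genes fallen 2-fold or more was 228 and 220 in these fits, and 713 with a pseudocount of 0.1. Leaving out 1 library gave 1154 to 1687 rises and 1893 to 3742 falls, with 575 to 605 genes risen 2-fold or more and 347 to 402 fallen as much; the lowest number of falls, 1893, came without control replicate 2. Over 54 counts of risen or fallen list members, median-of-ratios scaling moved 18. With a replicate block 1360 genes rose and 2641 fell. Whether same-numbered libraries are paired is not known. Their deviations correlated at -0.03, 0.13 and -0.04, and those of differently numbered libraries between -0.16 and 0.18, so these values cannot decide it. Without counts, depth sets an unknown limit on genes of a few FPKM.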
